A study of Homo sapiens with 8 samples.

Results

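The genes described are those of protein disulfide isomerases and of the ERO1 oxidases that recharge them, in cells labelled HepG2 (a human line from a liver tumour) after knockdown of XBP1. They are P4HB, PDIA3, PDIA4, PDIA5, PDIA6, TXNDC5, TXNDC11, ERP44, ERO1A and ERO1B. The members were chosen as named genes of this enzyme family, by NCBI Gene ID through RefSeq symbols, and all 10 of 10 were found among the 18555 genes of the count table. RNA-seq compared 3 siXBP1 libraries, from cells transfected with an siRNA against XBP1, with 3 siNC libraries, from cells transfected with the Allstar control siRNA. By the labels' protocols both groups were exposed to 30 nM thapsigargin for 3 hours, 2 days after transfection, so the controls had this stressor as well. Thapsigargin inhibits the pump that fills the endoplasmic reticulum (ER) with calcium, and is used to cause ER stress. The comparison therefore concerns reduced XBP1 during thapsigargin exposure, and no library without thapsigargin was among the RNA-seq samples. The 2 XBP1s ChIP-seq samples, also from cells given thapsigargin, are not analysed here.

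Proteins that enter the ER need disulfide bonds between the correct cysteines to fold. Isomerases with thioredoxin-like domains pass a disulfide to the client or shuffle wrong ones, and ERO1 flavoproteins re-oxidise the isomerases with molecular oxygen, which yields hydrogen peroxide. XBP1s, the protein made from spliced XBP1 mRNA, is a transcription factor of the unfolded protein response that is known to raise many genes of the secretory pathway. Hepatocytes secrete much of the plasma's disulfide-bonded protein and depend on this machinery.

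Library totals lay between 38209972 and 38890070 counts. XBP1 mRNA (gene ID 7494) had 290, 299 and 276 CPM (counts per 1000000 counts of the library) in siXBP1 libraries, against 552, 502 and 500 CPM in siNC libraries. The groups did not overlap, and XBP1 fell to 55.7% of its siNC mean (log2 fold change -0.84, SE 0.08, edgeR adjusted p = 0.0331). Its log2 fold change lay between -0.88 and -0.80 with 1 library left out, and the call ended without siXBP1 replicate 1 (adjusted p = 0.475), siXBP1 replicate 2 (0.284), siNC replicate 2 (0.175) or siNC replicate 3 (0.213). Hepatocyte markers did not bear out the HepG2 label. Of 9 listed, 4 had a row in the table (AFP, TF, SERPINA1 and HNF4A) and 0 reached a mean of 1 CPM, with a highest level in any library of 0.523 CPM for HNF4A. Their summed level was 0.619 to 1.04 CPM in siXBP1 libraries and 0.257 to 0.591 CPM in siNC libraries. The keratin KRT17, a marker of other epithelial lines, reached 3938 CPM, and 3 of 5 such markers had a mean of at least 1 CPM. KRT7 averaged 1473 CPM and KRT14 8.78 CPM over all libraries. TP63, however, averaged 0.644 CPM, and KRT5 reached at most 0.103 CPM (siNC replicate 1). Leukocyte markers and markers of professional secretory cells (4 genes each) reached at most 0.623 and 0.0520 CPM. The first principal component of the libraries, with 59.2% of the variance, did not follow the groups but set siXBP1 replicate 3 (score 0.65) and siNC replicate 1 (-0.64) at opposite ends. For the members, the lists and most other named genes, log2 fold changes are also given without these 2 libraries. Where such a library is the highest or lowest of its group for a gene, its omission shifts that gene's estimate by construction. These values are therefore not independent checks.

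Short motifs bound by factors of the unfolded protein response were searched on both strands in the RefSeq promoters of GRCh38.p14, which reach from 250 bases before to 50 bases after a gene start. The table held 12 starts for 9 of the 10 members, and PDIA3 had no entry. The ER stress response element ERSE (CCAAT and CCACG with 9 bases between) occurred at ERO1B and PDIA6, and in 0.0769% of all 35116 promoters. The unfolded protein response element UPRE (TGACGTGG) occurred at TXNDC5 and TXNDC11, and in 0.729% of all promoters. ERSE-II (ATTGG and CCACG with 1 base between) occurred at 0 members and in 0.0541% of all promoters. The core CCACG, which is part of ERSE and ERSE-II and overlaps UPRE on the other strand, occurred at 6 members and in 38.1% of all promoters. A member is counted once if any of its starts holds the motif, while the percentages count each promoter entry, so the units differ. At PDIA6 and TXNDC5 the full element lay at 1 of 2 listed starts. A match describes the letters in this window and shows no binding.

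The stretches below are shown because they hold a match at ERO1B and PDIA4, the members with the lowest estimates, and at the other members with a full element. PDIA4 holds the core alone. So does PDIA5, not shown, whose log2 fold change was 0.01, and no link between motif and level was tested. Capitals mark the motif, which at ERO1B and PDIA4 is printed as its reverse complement, and each stretch runs 5′ to 3′ along the minus strand, on which all 5 genes lie (GRCh38.p14, RefSeq).
ERO1B, ERSE on the strand opposite to the gene, 243 bases before the start, chr1:236282153-236282208: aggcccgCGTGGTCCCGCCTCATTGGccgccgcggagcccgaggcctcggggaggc
PDIA6, ERSE on the strand of the gene, 86 bases before the start, chr2:10812823-10812901: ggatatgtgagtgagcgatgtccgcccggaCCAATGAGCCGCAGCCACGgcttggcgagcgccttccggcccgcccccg
TXNDC5, UPRE on the strand of the gene, 92 bases before the start, chr6:7910132-7910199: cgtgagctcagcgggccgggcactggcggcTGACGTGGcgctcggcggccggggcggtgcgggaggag
TXNDC11, UPRE on the strand of the gene, 5 bases after the start, chr16:11742833-11742856: cggcTGACGTGGagcgtccgggtt
PDIA4, core on the strand opposite to the gene, 37 bases before the start, chr7:149028493-149028557: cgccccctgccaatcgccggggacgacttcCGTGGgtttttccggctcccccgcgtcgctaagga

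As a family the members had slightly lower estimates in siXBP1 libraries, but no single member passed the test over all genes. All 10 passed the filter on low counts. Of these, 8 had lower and 2 had higher estimates, with a median log2 fold change of -0.11, against 47.2% of lower estimates and a median of 0.01 over the 14337 genes tested. Together the members took 0.378%, 0.382% and 0.367% of all counts in siXBP1 libraries, against 0.433%, 0.408% and 0.403% in siNC libraries. In this share the groups did not overlap, but how often other gene sets do so was not tested. Of the lists described below, partners and clients also did not overlap in summed level. They had 4691, 4601 and 4912 CPM in siXBP1 libraries, against 4927, 5197 and 4956 CPM in siNC libraries. The sums of the other thioredoxin-fold genes, the oxidation and reduction genes and the hypoxia targets overlapped. By edgeR's quasi-likelihood test with Benjamini-Hochberg adjustment 0 of 10 members were called at an adjusted p under 0.05, where the background was 0.00697% of all genes (XBP1 alone). The adjusted p was 0.9998 for each of the 10. At an unadjusted p under 0.05, PDIA4 was the 1 member that was lower, and 1.7% of all genes were. DESeq2 called 0 members as well. Whether fewer cells of a type or less RNA per cell lies behind a lower level cannot be told apart in bulk RNA.

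In 3 of 10 members, PDIA3, PDIA4 and TXNDC11, every siXBP1 library was below every siNC library, which was so for 3.74% of all genes tested. The opposite order, every siXBP1 library above every siNC library, was seen in 0 of 10 members and in 5.01% of all genes. Without siNC replicate 1 and siXBP1 replicate 3 the groups were apart, with siXBP1 lower, in 6 members, and in 24.7% of all genes with 2 libraries against 2.

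**Figure D1:**
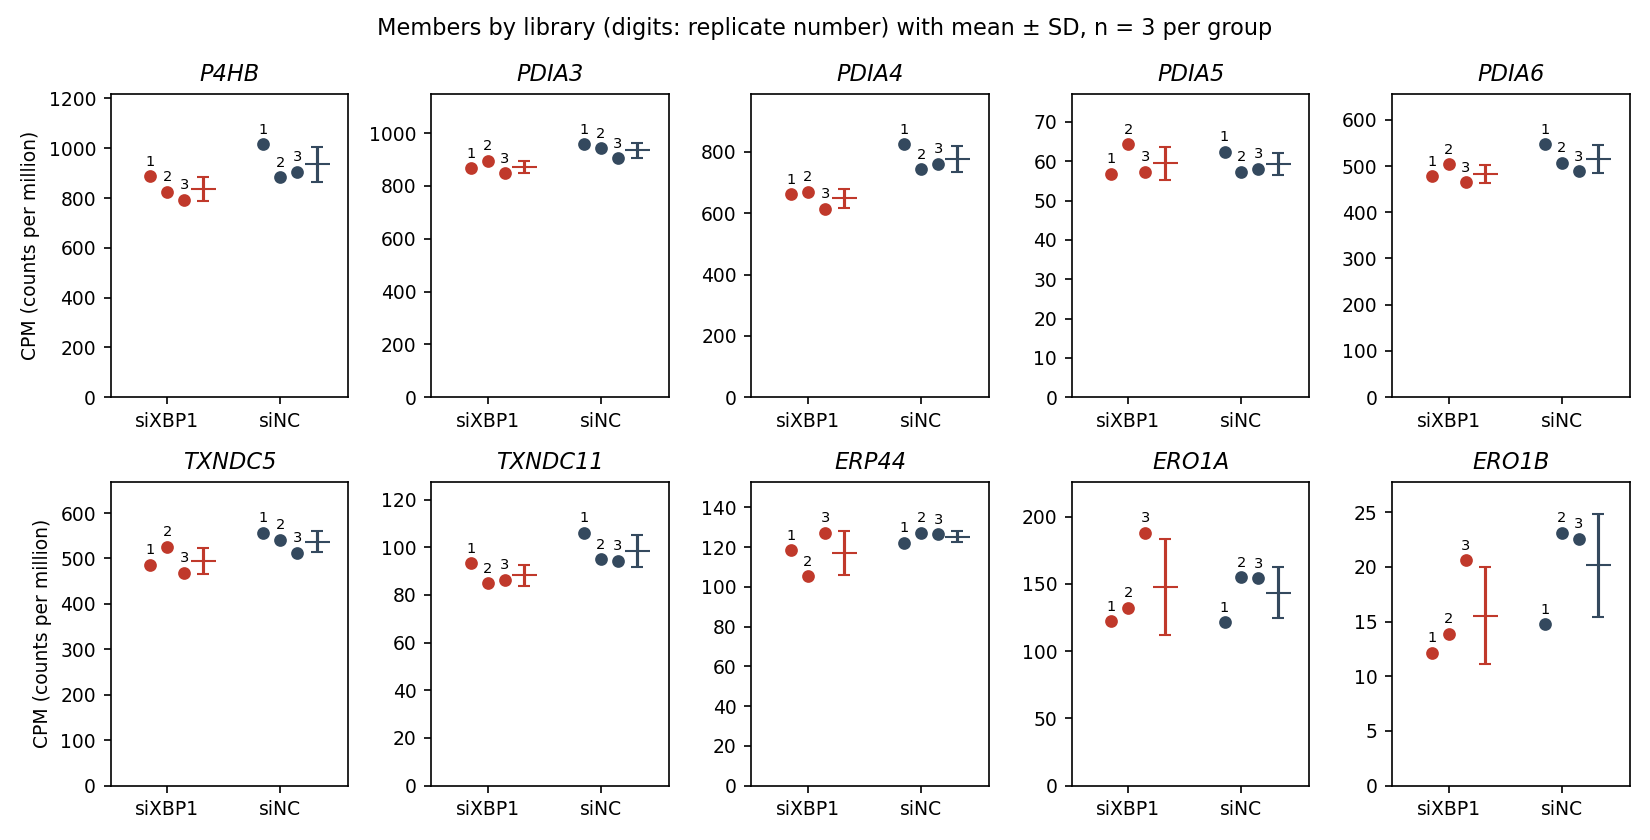
Level of each member in CPM (y axis, from 0) in every library (points, with the replicate number) of siXBP1 (red, left) and siNC (blue, right), with mean ± SD, n = 3 per group. The groups are apart for PDIA3, PDIA4 and TXNDC11, and the ERO1 genes spread most within a group relative to their mean.

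PDIA4 (gene ID 9601, chromosome 7, 149003051 to 149028505, GRCh38.p14) encodes ERp72, an isomerase with several thioredoxin-like domains. It had 661, 671 and 614 CPM in siXBP1 libraries, against 826, 744 and 761 CPM in siNC libraries. All 3 siXBP1 libraries were below all 3 siNC libraries, with a gap of 73.8 CPM between siXBP1 replicate 2 and siNC replicate 2. PDIA4 averaged 649 ± 30.1 CPM in siXBP1 and 777 ± 42.8 CPM in siNC libraries (SD, n = 3 each), or 83.5% of its siNC level. Its log2 fold change was -0.26 (SE 0.08; 95% interval -0.44 to -0.07, not adjusted for the number of genes; unadjusted p = 0.011 and adjusted p = 0.9998, edgeR). With 1 library left out in turn it lay between -0.30 and -0.22, and without both end libraries of the first component it was -0.17.

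P4HB (gene ID 5034, chromosome 17, 81843166 to 81860535) encodes the founding protein disulfide isomerase, which is also the beta subunit of collagen prolyl 4-hydroxylase. It had 887, 825 and 793 CPM in siXBP1 libraries, against 1017, 885 and 905 CPM in siNC libraries. The highest siXBP1 library exceeded the lowest siNC library by 2.84 CPM, so the groups met at their edges, and siNC replicate 1 stood above the rest. Its log2 fold change was -0.16 (SE 0.09; 95% interval -0.35 to 0.03, edgeR), and it was -0.06 without both end libraries.

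PDIA3 (gene ID 2923, chromosome 15, 43746438 to 43773278) encodes ERp57, the isomerase that works with calnexin and calreticulin on glycoproteins. It had 867, 895 and 849 CPM in siXBP1 libraries, against 958, 943 and 904 CPM in siNC libraries. The groups were apart by 9.68 CPM, and the spread within a group was small, with a coefficient of variation of 2.64% in siXBP1 and 2.97% in siNC. By edgeR the log2 fold change was -0.10 (SE 0.07; 95% interval -0.27 to 0.07), and it was -0.06 without both end libraries. The count is uncertain to the extent that reads are shared with its processed pseudogene PDIA3P1. That gene held 46.5, 46.8 and 43.2 CPM in siXBP1 libraries, against 52.5, 44.3 and 47.3 CPM in siNC libraries, which is 4.48% to 5.19% of the sum of both genes. The summed level was 913, 942 and 892 CPM in siXBP1 libraries, against 1011, 988 and 952 CPM in siNC libraries, so that the groups stayed apart.

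PDIA6 (gene ID 10130, chromosome 2, 10783391 to 10837712) encodes P5, an isomerase that associates with the chaperone BiP. It had 477, 504 and 465 CPM in siXBP1 libraries, against 547, 507 and 489 CPM in siNC libraries. The groups overlapped, since siXBP1 replicate 2 was above siNC replicate 3. PDIA6 had a log2 fold change of -0.09 (SE 0.08; 95% interval -0.28 to 0.10, edgeR), and of -0.02 without siXBP1 replicate 3 and siNC replicate 1.

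TXNDC5 (gene ID 81567, chromosome 6, 7881517 to 7910788) encodes ERp46, an isomerase that introduces disulfides rapidly. It had 487, 526 and 469 CPM in siXBP1 libraries, against 557, 542 and 513 CPM in siNC libraries. Again siXBP1 replicate 2 was above siNC replicate 3. By edgeR its log2 fold change was -0.12 (SE 0.09; 95% interval -0.31 to 0.07), and it was -0.05 without both end libraries.

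TXNDC11 (gene ID 51061, chromosome 16, 11679083 to 11742857) encodes a membrane-anchored thioredoxin-like protein that has been linked to EDEM proteins of ER-associated degradation. It had 93.3, 85.1 and 86.3 CPM in siXBP1 libraries, against 106, 95.1 and 94.3 CPM in siNC libraries. The groups were apart by 1.03 CPM. TXNDC11 had a log2 fold change of -0.16 (SE 0.10; 95% interval -0.37 to 0.06, edgeR), and of -0.08 without both end libraries.

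PDIA5 (gene ID 10954, chromosome 3, 123067025 to 123162104) encodes PDIR, a less studied isomerase. It had 56.8, 64.4 and 57.3 CPM in siXBP1 libraries, against 62.5, 57.3 and 58.1 CPM in siNC libraries. The highest library was siXBP1 replicate 2 and the lowest siXBP1 replicate 1, so siXBP1 spanned the whole siNC range. The estimate was a log2 fold change of 0.01 (SE 0.11; 95% interval -0.23 to 0.24, edgeR), and its sign changed to -0.00154 with upper-quartile factors and to between -0.06 and -0.02 in 3 fits with 1 library left out. Without both end libraries the log2 fold change was 0.08.

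ERP44 (gene ID 23071, chromosome 9, 99979185 to 100099000) encodes a thioredoxin-like protein that retains ERO1 enzymes and unassembled clients in the early secretory pathway. It had 118, 105 and 127 CPM in siXBP1 libraries, against 122, 127 and 126 CPM in siNC libraries. The siNC libraries lay close together (SD 2.70 CPM), while siXBP1 spread more widely (SD 11.1 CPM, n = 3 each) around a lower mean. ERP44 had a log2 fold change of -0.10 (SE 0.10; 95% interval -0.31 to 0.12, edgeR), and of -0.18 without both end libraries.

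**Figure D2:**
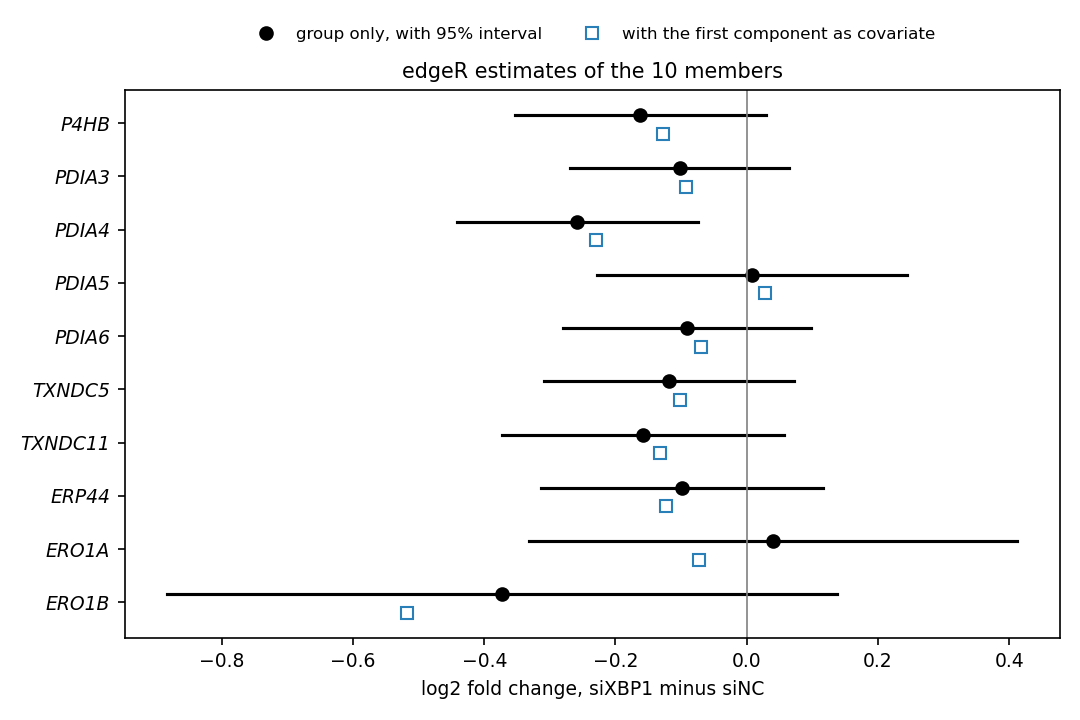
Log2 fold change of siXBP1 minus siNC (x axis) for the 10 members (rows), by edgeR with group alone (black points, with 95% intervals not adjusted for the number of genes) and with the first component as a covariate (open blue squares). The interval of PDIA4 lies below 0, those of the other 9 members include 0, and the ERO1 genes have the widest.

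Both ERO1 genes varied widely within the groups, with coefficients of variation of 24.1% in siXBP1 and 13.3% in siNC for ERO1A and of 28.7% in siXBP1 and 23.3% in siNC for ERO1B, where the other members had 2.15% to 9.47%. ERO1A (gene ID 30001, chromosome 14, 52639915 to 52695558) encodes the widely expressed oxidase, a known target of the hypoxia response and of CHOP. It had 122, 132 and 188 CPM in siXBP1 libraries, against 122, 155 and 154 CPM in siNC libraries. The highest value was siXBP1 replicate 3 and the lowest siNC replicate 1, the same 2 libraries as the ends of the first component, and the groups overlapped. Over all libraries the log2 fold change was 0.04 (SE 0.17; 95% interval -0.33 to 0.41, edgeR). It was -0.18 without siXBP1 replicate 3, -0.07 without siNC replicate 1 and -0.28 without both. These are the highest siXBP1 and the lowest siNC library for ERO1A, so omitting them lowers its estimate by construction.

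ERO1B (gene ID 56605, chromosome 1, 236215101 to 236281958) encodes the second oxidase, known for high levels in pancreas and other secretory tissue. It had 468, 538 and 787 counts in siXBP1 libraries, against 573, 899 and 869 counts in siNC libraries. These are 12.2, 13.9 and 20.6 CPM in siXBP1 libraries, against 14.7, 23.1 and 22.6 CPM in siNC libraries. Again siXBP1 replicate 3 was the highest library of its group and siNC replicate 1 the lowest of its own. The groups overlapped, and were apart once either of these 2 libraries was left out. The log2 fold change of -0.37 was the lowest of the 10 members, with a wide error (SE 0.23; 95% interval -0.88 to 0.14; unadjusted p = 0.134 and adjusted p = 0.9998, edgeR). It was -0.64 without siXBP1 replicate 3, -0.56 without siNC replicate 1, -0.22 without siXBP1 replicate 1 and -0.81 without both end libraries, where ERO1B passed the test (adjusted p = 0.000199, edgeR, 2 libraries against 2). In that fit 3.42% of all genes passed as lower, against 0.00697% with all 6 libraries. The 2 omitted libraries were picked by a component computed from the same data. For ERO1B they are the highest siXBP1 and the lowest siNC library, so their omission widens its difference. The p-value of that fit may therefore be too small.

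The ratio of ERO1B to ERO1A counts, which does not depend on library size, separated the groups. It was 0.0996, 0.105 and 0.109 in siXBP1 libraries, against 0.121, 0.149 and 0.146 in siNC libraries. Every siXBP1 library was below every siNC library, although each gene alone overlapped between the groups. The mean log2 ratio was -3.26 in siXBP1 and -2.85 in siNC libraries, a difference of -0.40 (n = 3 each; two-sided exact permutation test, p = 0.1, the smallest that 3 against 3 allows). With 1 library left out the difference lay between -0.50 and -0.35. By the same permutation test p was 0.2 without any 1 siXBP1 library and 0.1 without any 1 siNC library. The smallest possible p there is 0.1. The ratio does not tell in which of the genes the difference lies. How often ratios of other gene pairs separate the groups was not tested.

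**Figure D3:**
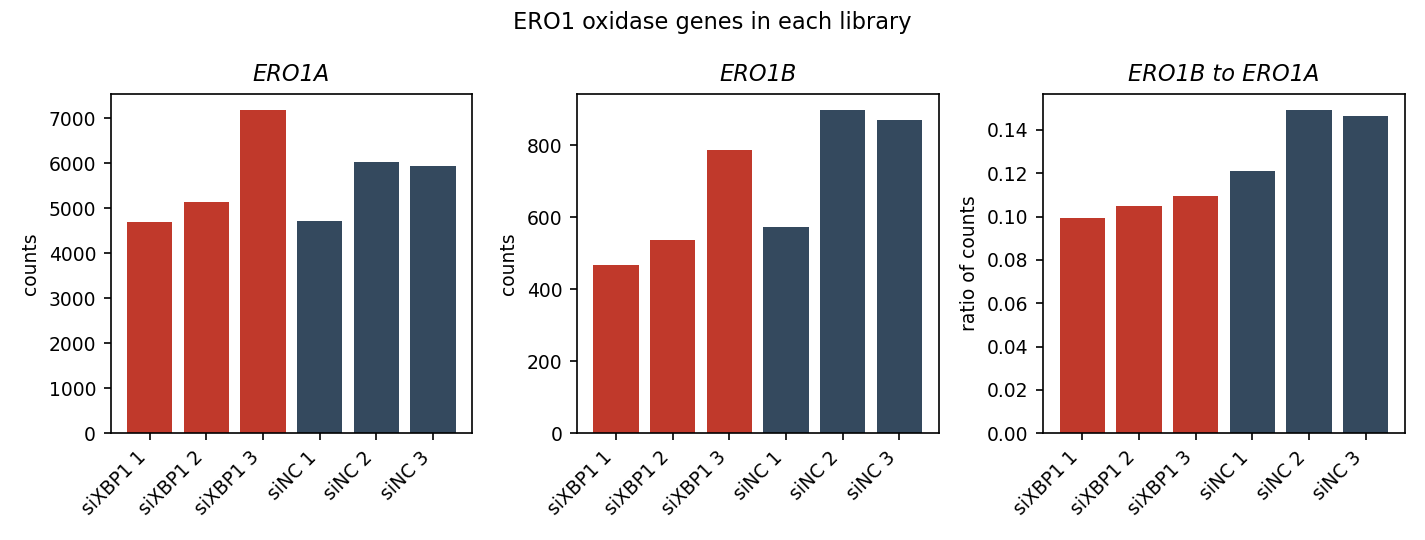
Counts of ERO1A (left), counts of ERO1B (middle) and their ratio (right), each from 0 on the y axis, in the siXBP1 (red) and siNC (blue) libraries. Both genes are high in siXBP1 replicate 3 and low in siNC replicate 1 within their groups, while the ratio is 0.0996 to 0.109 in siXBP1 and 0.121 to 0.149 in siNC.

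At the ends of the first component the isomerase genes other than ERP44 and the oxidase genes stood on opposite sides. Relative to its own mean over the 6 libraries, P4HB was at -0.16 in siXBP1 replicate 3 and at 0.20 in siNC replicate 1 on the log2 CPM scale. PDIA4 was at -0.21 in siXBP1 replicate 3 and at 0.22 in siNC replicate 1. ERO1A was at 0.39 in siXBP1 replicate 3 and at -0.24 in siNC replicate 1, and ERO1B was at 0.25 and -0.23 in the same libraries. Of the 10 members, 5 were lowest in siXBP1 replicate 3 (P4HB, PDIA3, PDIA4, PDIA6 and TXNDC5) and 6 were highest in siNC replicate 1 (the same genes and TXNDC11). Over all 14337 genes tested, 3715 were lowest in siXBP1 replicate 3 and 3458 highest in siNC replicate 1. Leaving out these 2 libraries brought the median of the 10 members to -0.07, with 9 estimates lower, against a median of 0.01 over all genes.

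With the score on that component as a covariate in the edgeR fit, 2 of 10 members passed, both lower in siXBP1, where the background was 0.488% of all genes. They were ERO1B (log2 fold change -0.52, SE 0.10, adjusted p = 0.00674) and PDIA4 (-0.23, SE 0.05, adjusted p = 0.0278). The other 8 members had adjusted p from 0.329 (P4HB) to 0.931 (PDIA5), and ERO1A had a log2 fold change of -0.07 (SE 0.06). The component was computed from the same 6 libraries and is taken as known in the fit, so these errors may be too small.

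**Figure D4:**
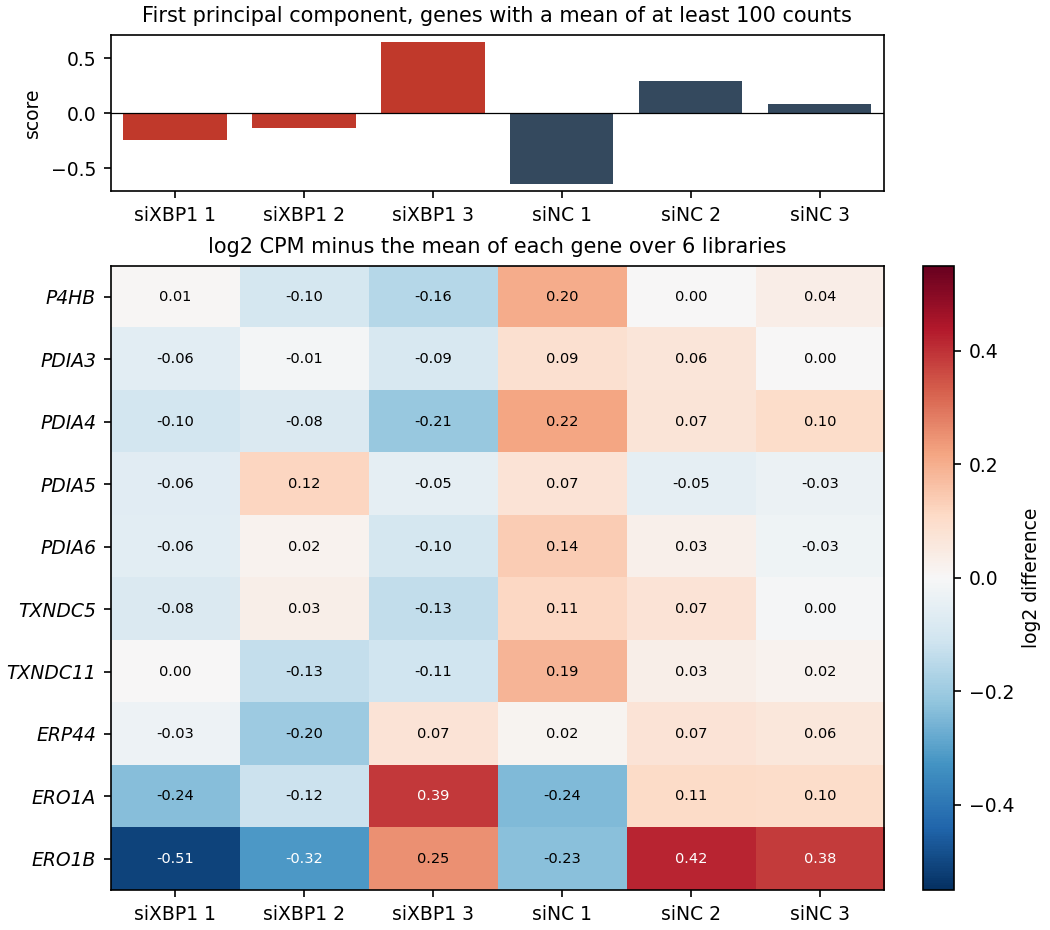
Top, score of each library (x axis) on the first principal component. Bottom, log2 CPM of each member minus its own mean over the 6 libraries, with siXBP1 libraries left. In siXBP1 replicate 3 P4HB is at -0.16 and PDIA4 at -0.21 while ERO1A is at 0.39 and ERO1B at 0.25, and in siNC replicate 1 the signs are turned round.

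Of other ER proteins with a thioredoxin-like fold, 9 of 16 listed genes were tested, 0 were called in either direction, and 5 estimates were higher and 4 lower (median log2 fold change 0.03, and -0.05 without both end libraries). By edgeR 0 of the 9 had an unadjusted p under 0.05, and DESeq2 called 0. ERP29, a redox-inactive relative of the isomerases, had 224 ± 19.3 CPM in siXBP1 and 239 ± 19.6 CPM in siNC libraries (SD, n = 3 each; log2 fold change -0.09, and 0.04 without both end libraries). TMX2, a membrane-bound relative, had a log2 fold change of -0.03, and of 0.07 without both end libraries. DNAJC10, which encodes the reductase ERdj5, had 105, 106 and 140 CPM in siXBP1 libraries, against 106, 153 and 139 CPM in siNC libraries. As with the ERO1 genes, siXBP1 replicate 3 was the highest of its group and siNC replicate 1 the lowest of its own. Its log2 fold change was -0.18, and -0.46 without both end libraries. With the covariate it was -0.27 (SE 0.06, edgeR adjusted p = 0.0200), and DNAJC10 was the 1 gene of this list that passed.

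Of other genes for oxidation and reduction in the ER, 8 of 9 listed genes were tested, 0 were called, and 3 estimates were higher and 5 lower (median -0.03, range -0.06 to 0.10). The median was 0.03 with the covariate and 0.13 without both end libraries. Again 0 had an unadjusted edgeR p under 0.05 and 0 were called by DESeq2. PRDX4, a peroxiredoxin that uses the hydrogen peroxide of the ER, had 167 ± 18.4 CPM in siXBP1 and 162 ± 8.26 CPM in siNC libraries (n = 3 each; log2 fold change 0.05, and 0.16 without both end libraries). QSOX1, a sulfhydryl oxidase, had a log2 fold change of -0.06, and SELENOF, a selenoprotein of the ER, one of -0.03. Without both end libraries these were 0.21 for QSOX1 and -0.24 for SELENOF. With the covariate 0 genes of this list passed.

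Of partners and clients of the members, 9 of 10 listed genes were tested, 0 were called with or without the covariate, and 2 estimates were higher and 7 lower (median -0.09, and -0.06 without both end libraries), with 0 at an unadjusted edgeR p under 0.05 and 0 called by DESeq2. CALR, the lectin chaperone calreticulin that works with PDIA3, had 2396, 2392 and 2215 CPM in siXBP1 libraries, against 2618, 2436 and 2405 CPM in siNC libraries. It was the 1 gene of this list with groups that did not overlap (log2 fold change -0.09, SE 0.07, edgeR). CALR was highest in siNC replicate 1 and lowest in siXBP1 replicate 3, and its log2 fold change without both was -0.01. Its membrane-bound counterpart CANX had a log2 fold change of -0.09 with all libraries, but of -0.25 without both end libraries. The calcium channel gene ITPR1, whose product ERP44 is known to bind, had one of -0.05, and of -0.29 without both end libraries.

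Because ERO1A is a known hypoxia target, 12 other hypoxia targets were set beside it. All 12 had lower estimates (median -0.26), 0 were called, and 10 of 12 were highest in siNC replicate 1, the library in which ERO1A was lowest. At an unadjusted edgeR p under 0.05, 4 of 12 were lower, against 1.7% of all genes, and DESeq2 called 0. In 4 of 12 every siXBP1 library was below every siNC library, against 3.74% of all genes. Their summed level was 3567, 3501 and 3338 CPM in siXBP1 libraries, against 4301, 3567 and 3661 CPM in siNC libraries. LDHA, which makes lactate, had a log2 fold change of -0.11, NDRG1 one of -0.19 and VEGFA one of -0.03. Without both end libraries these were -0.04 for LDHA, 0.07 for NDRG1 and 0.13 for VEGFA. With the covariate SLC2A3, a glucose transporter gene (-0.30, edgeR adjusted p = 0.0199), and CA9, a carbonic anhydrase gene (-0.37, adjusted p = 0.0438), passed as lower. Without both end libraries 7 of 12 were lower (median -0.06). The log2 fold change of ERO1A was 0.04 with all libraries, -0.07 with the covariate and -0.28 without both end libraries.

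**Figure D5:**
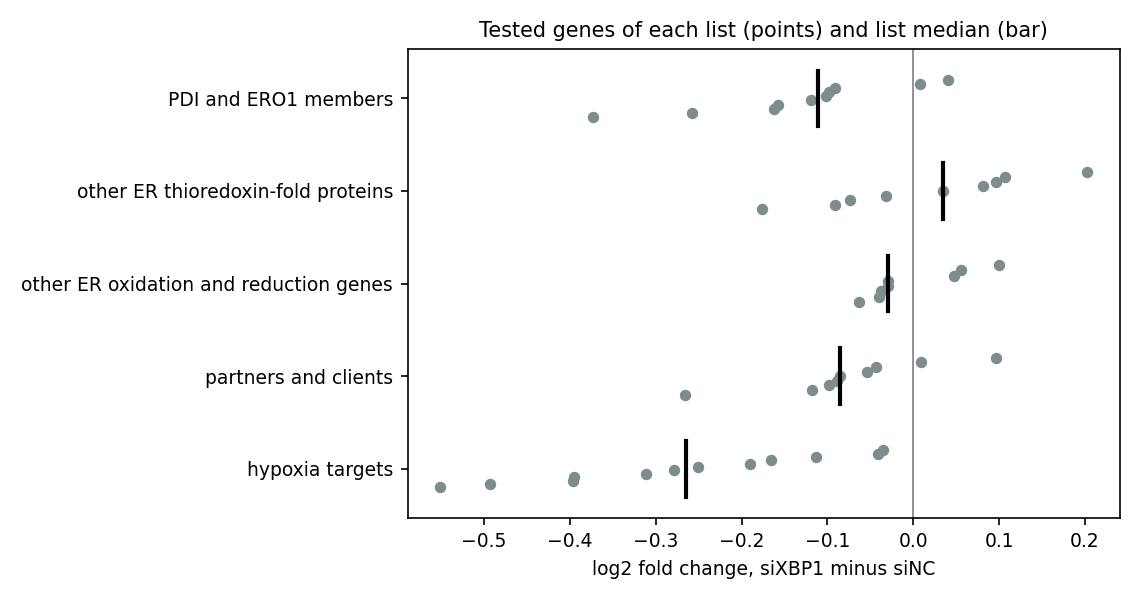
Log2 fold change of siXBP1 minus siNC by edgeR (x axis) for each tested gene (points) of the members and of 4 other lists (rows), with the list median as a bar. The medians are -0.11 for the members, 0.03, -0.03 and -0.09 for the 3 lists of related ER genes, and -0.26 for hypoxia targets.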

How the data were processed

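The values deposited by the authors are raw counts of reads per gene. They were made with STAR 2.5.2a and featureCounts 1.5.0 (Subread) on hg38, per the submitters' processing notes, from stranded TruSeq libraries, per the labels' protocols. How strand was set in counting is not given in the sources used here. RefSeq names of GRCh38.p14 matched 18526 IDs. Of the counts from 1 to 40, 75.8% to 80.5% were even, so both mates of a pair may be counted.

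After filterByExpr and TMM, edgeR 4.0.16 (R 4.3.3) tested all 14337 remaining genes with its quasi-likelihood test, two-sided, for group alone (4 residual degrees of freedom). Benjamini-Hochberg adjustment ran over all of these genes, with a threshold of 0.05. The SE is the size of the log2 fold change over the square root of F. Alternatives were other scalings, other filters, DESeq2 1.42.0, limma-voom (limma 3.58.1), the replicate number as a block, omission of each library or of siXBP1 replicate 3 with siNC replicate 1, the first principal component (of genes averaging at least 100 counts) as a covariate, halved counts and a threshold of 0.01. Overlap without those 2 libraries was added after seeing the data. The procedure was tested on simulated data. These held no shared component like the first one here, and only changes larger than the members' estimates. They therefore cannot tell how well the fits handle either. A floor of 3 counts is 0.0771 to 0.0785 CPM, for counting error only.

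Members, lists and fits were chosen with earlier results of these data known. Named genes are the 10 members, XBP1 and, of each list, the genes called with or without the covariate and the 3 with the highest mean CPM. Replicates of each group differed by more than sampling noise. Nothing in the labels tells separate cultures from repeat libraries, so the spread behind the p-values may be technical. Levels are not compared between genes, since transcript lengths were not used.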

Additional observations from a re-analysis of the deposited data

How the results depend on the processing

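XBP1 alone was called over all genes, and 0 members. The number of genes called was 0 with upper-quartile factors, 0 at a threshold of 0.01, 16 with DESeq2, 172 with the first component as a covariate and 702 with both libraries at its ends omitted, and it lay between 0 and 1 with 1 library left out. XBP1 itself passed the threshold no longer without siXBP1 replicate 1 or 2 or siNC replicate 2 or 3 (adjusted p from 0.175 to 0.475, edgeR). The number of members called was 2 with the covariate (ERO1B and PDIA4) and 1 without both end libraries (ERO1B; PDIA4 had adjusted p = 0.244, edgeR), and 0 in each other fit. P4HB, PDIA3, PDIA4, PDIA6, TXNDC5, TXNDC11, ERP44 and ERO1B were lower in all 17 alternatives. PDIA5 turned below 0 in 4, at -0.00154 with upper-quartile factors, -0.064 without siXBP1 replicate 2, -0.025 without siNC replicate 2 and -0.017 without siNC replicate 3 (from -0.064 to 0.043 with 1 library left out). ERO1A turned below 0 in 4, at -0.18 without siXBP1 replicate 3, -0.07 without siNC replicate 1, -0.28 without both (adjusted p = 0.0591, edgeR) and -0.073 with the covariate (from -0.18 to 0.16 with 1 library left out). The cause was not tested. Members lower with no overlap numbered 5 without siXBP1 replicate 3 (6.94% of all genes), 4 without siNC replicate 1 (7.14%) and 6 without both. Whether the replicate numbers pair the samples could not be told. Libraries of the same number correlated at 0.60, -0.36 and 0.43 in their deviations from the group means, and siXBP1 replicate 2 correlated best with siNC replicate 1 (0.46). Such deviations sum to 0 within a group, so these correlations cannot settle pairing. With the replicate number as a block, 1 gene and 0 members were called, and the ERO1B to ERO1A difference stayed at -0.40 (exact sign-flip test, p = 0.25, the smallest that 3 pairs allow).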

Other observations

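Relatives of the members that are known for tissue-restricted use had low levels, under 1 CPM in every library. PDIA2, a pancreatic isomerase, reached at most 0.361 CPM in siXBP1 and 0.669 CPM in siNC libraries, and AGR2, an isomerase of mucus-secreting cells, at most 0.260 CPM in siXBP1 and 0.206 CPM in siNC libraries. ERP27 reached at most 0.0523 CPM in siXBP1 and 0.206 CPM in siNC libraries. MTTP, the lipid-transfer partner of P4HB in hepatocytes, reached at most 0.361 CPM in siXBP1 and 0.412 CPM in siNC libraries. TAPBP is a partner and not one of these tissue-restricted relatives, and its product tapasin holds PDIA3 in the peptide loading complex. It had at most 0.258 CPM in siXBP1 and 0.103 CPM in siNC libraries. Whether this low count comes from the cells or from mapping and counting was not tested. PDILT, AGR3, CASQ2 and GPX7 are not analysed here.

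The subunits P4HA1, P4HA2 and P4HA3, which join P4HB in prolyl 4-hydroxylase, had log2 fold changes of -0.10, -0.12 and -0.04, none of them called (edgeR adjusted p = 0.9998 each). Without both end libraries these were -0.25 for P4HA1, 0.08 for P4HA2 and 0.20 for P4HA3. The genes of this paragraph and the one before were named after their values were seen. ELL3, ATP6V1C2 and SNN, which overlap PDIA3, PDIA6 and TXNDC11 in the genome, averaged 5.81, 4.19 and 5.96 CPM over all libraries. BMP6, which overlaps TXNDC5, had 117 ± 8.33 CPM in siXBP1 and 119 ± 6.93 CPM in siNC libraries (SD, n = 3 each). Other overlapping genes are not covered here.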
